A study of Mus musculus with 42 samples.

Results

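The genes described here encode channels, transporters and receptors of the astroglial membrane, together with the astroglial intermediate filament. They were chosen by name: Gja1, Gjb6, Aqp4, Slc1a2, Slc1a3, Slc4a4, Ednrb, Gpr37l1 and Gfap. All 9 were found among the 35275 genes of the deposited tables, and all 9 passed the filter on low counts in every fit. Gfap is a cytoskeletal gene, not a membrane gene, and was kept because the rule lists it. Earlier results on the same libraries, in which Gja1 and Ednrb were called after refeeding, were known when the genes were chosen. Values from the comparisons of refed IF16 and refed EOD with refed AL are therefore given as a description and support nothing.

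RNA was measured in whole cerebellum of male C57BL/6 mice, in 6 groups of 5 libraries. AL mice were fed ad libitum, IF16 mice fasted for 16 h each day, and EOD mice fasted for 24 h on alternate days. These regimens ran from 3 months of age for 3 months, and tissue was taken at 6 months. Further mice of each kind, called refed AL, refed IF16 and refed EOD below and marked by an R in the labels, then ate freely for 2 months, and their tissue was taken at 8 months. No group carried a transgene or a drug, and the labels do not give the hour of collection relative to the last meal. The labels do not tie a library to a named animal, so p-values measure the spread between libraries.

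Astrocytes and Bergmann glia, the radial astroglia whose processes ensheath Purkinje cell synapses, clear transmitter, buffer potassium and move water. The connexins Cx43 (Gja1) and Cx30 (Gjb6) couple them through gap junctions, and aquaporin-4 (Aqp4) lines their endfeet on blood vessels. GLAST (Slc1a3), the main glutamate transporter of Bergmann glia, and GLT-1 (Slc1a2) remove synaptic glutamate, the sodium bicarbonate cotransporter NBCe1 (Slc4a4) handles pH, and the endothelin receptor B (Ednrb) and Gpr37l1 are receptors coupled to G proteins.

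Total counts ranged from 26799825 to 36167435 per library, and each of the 9 genes had between 2022 and 50888 counts in every library. Levels below are CPM (counts scaled to a common library size) after 1 TMM scaling of all 30 libraries, and levels of different genes are compared only as FPKM, which divides by gene length. The common coefficient of biological variation was 14.3% at the end of the regimens and 8.05% after refeeding. Libraries also differed in how far long genes read high. This length gradient is the slope across genes of a library's log2 deviation on log2 gene length. It spanned -0.187 to 0.016 in AL, -0.148 to 0.0229 in IF16 and -0.0521 to 0.0953 in EOD. After refeeding it spanned 0.0133 to 0.0331 in refed AL, 0.043 to 0.0786 in refed IF16 and 0.0113 to 0.0463 in refed EOD. Choroid plexus transcripts, summed over 11 marker genes, ranged from 155 to 5110 CPM.

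Beside the members, 2 lists of other astroglial genes were read for their levels, which do not show which cells the reads of the members came from. The 16 astrocyte genes summed to between 7400 and 12100 CPM, and the 12 Bergmann glia genes, among them Gdf10 and Hopx, summed to between 2250 and 2840 CPM. No gene of either list was at 0 in all libraries of a group. The tissue was not sorted: 10 granule cell genes summed to between 6150 and 7580 CPM and 10 oligodendrocyte genes to between 5100 and 7120 CPM. In such bulk samples, fewer cells of a type and less RNA per cell cannot be told apart.

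Promoters are shown for both connexin genes, whose levels are described first, and for the glutamate transporter gene Slc1a3, 1 of the 2 members of highest level. Each is the 250 bases before the start site in RefSeq (GRCm38.p6), written in the direction of the gene. Gja1 lies at chr10:56377050-56377299 on the plus strand, Gjb6 at chr14:57133612-57133861 on the minus strand and Slc1a3 at chr15:8710808-8711057 on the minus strand. Capitals mark matches, on either strand, to the TATA box letters TATAAA, the CCAAT box, the GC box letters GGGCGG, the E-box letters CACGTG, the nuclear factor I letters TTGGCA, or the Sox-type letters ACAAAG and ACAATG.
Gja1: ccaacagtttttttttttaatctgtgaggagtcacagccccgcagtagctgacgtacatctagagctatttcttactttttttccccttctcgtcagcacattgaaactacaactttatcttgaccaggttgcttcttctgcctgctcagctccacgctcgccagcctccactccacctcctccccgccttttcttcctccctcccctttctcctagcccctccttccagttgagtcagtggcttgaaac
Gjb6: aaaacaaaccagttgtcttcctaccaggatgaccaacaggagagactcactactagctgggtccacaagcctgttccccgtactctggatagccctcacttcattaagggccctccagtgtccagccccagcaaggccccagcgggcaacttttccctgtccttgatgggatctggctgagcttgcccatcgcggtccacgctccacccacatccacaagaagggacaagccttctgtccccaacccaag
Slc1a3: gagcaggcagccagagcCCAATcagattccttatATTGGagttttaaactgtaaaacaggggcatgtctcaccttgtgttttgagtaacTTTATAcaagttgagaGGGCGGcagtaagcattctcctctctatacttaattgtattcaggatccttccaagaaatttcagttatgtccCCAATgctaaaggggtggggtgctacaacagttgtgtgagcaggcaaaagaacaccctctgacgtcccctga

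None of these letters occurred in the windows of Gja1 or Gjb6. Slc1a3 held CCAAT on both strands, TATAAA on the opposite strand and GGGCGG on its own strand. RefSeq windows were found for 8 of the 9 genes, with 9 start sites, and not for Aqp4. Of 32851 promoters of the same length, 33.8% held CCAAT, 32.7% GGGCGG, 16.5% ACAAAG, 12.4% TATAAA, 12.3% TTGGCA, 10.7% ACAATG and 6.02% CACGTG. A match describes letters only.

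Per length, Gpr37l1 and Slc1a3 had the highest levels of the 9 genes, with mean deposited FPKM of 294 and 283 over the 30 libraries. Gja1 and Gfap followed at 79.3 and 75.9 FPKM. Aqp4 had 51 FPKM, Slc1a2 50.3, Slc4a4 49.8 and Gjb6 43.4. Ednrb was the lowest at 27.6 FPKM and ranked 2842 of 35275 genes by mean FPKM, while Gpr37l1 ranked 119. Across the 30 libraries, Slc4a4 varied most, 2.22-fold in FPKM between its lowest and highest library, and Gpr37l1 least, 1.4-fold.

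**Figure D1:**
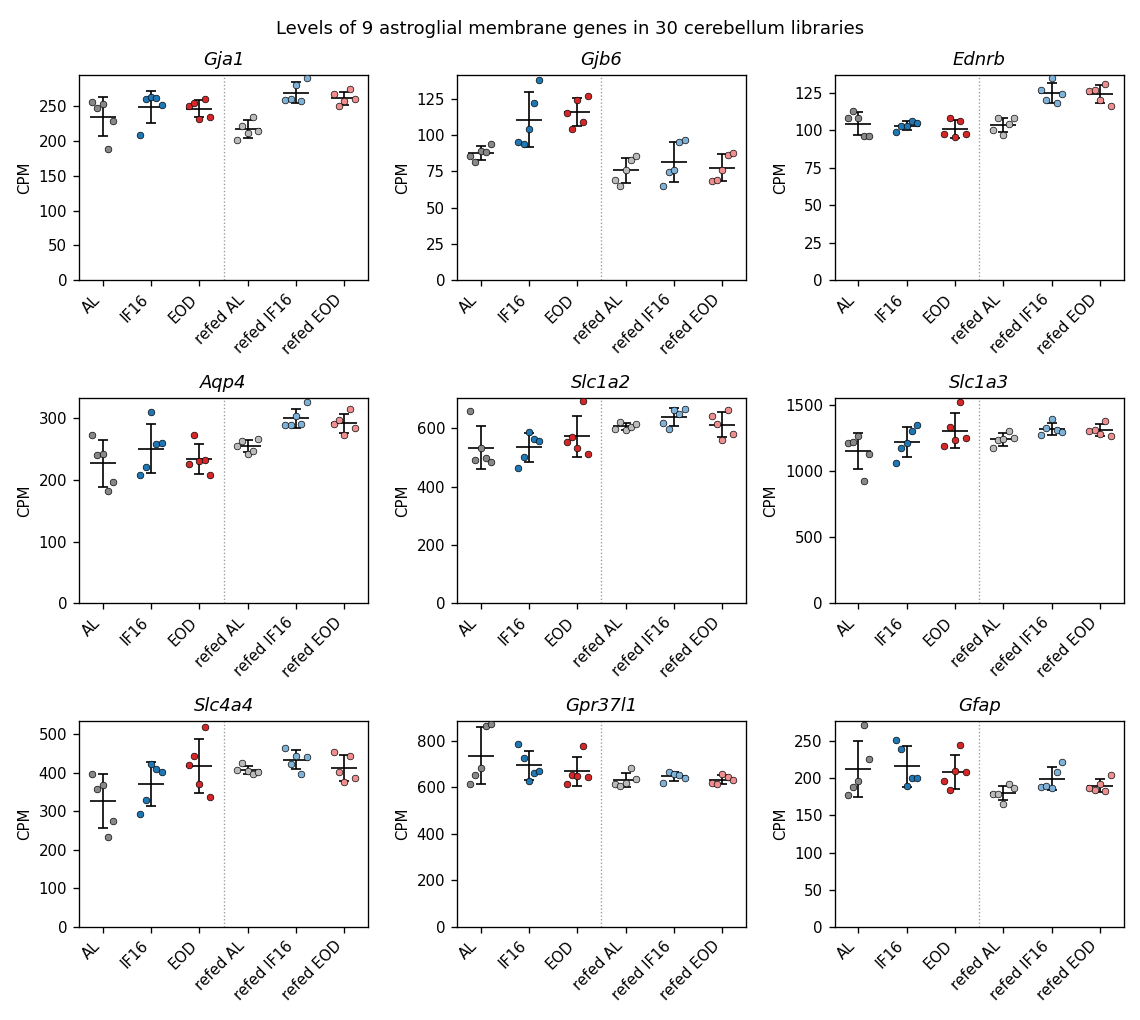
Level of each gene in CPM (y axis, from 0) in the 6 groups (x axis). Points are the 5 libraries of a group, and the bar and whiskers are mean and SD. Gjb6 sits above AL in all 10 IF16 and EOD libraries. In a scaling of its own table, IF16 replicate 2 lies just under AL replicate 5. Ednrb is at 116 CPM or more in every refed IF16 and refed EOD library and at 113 or less in the others. The share of all genes split like Ednrb was not counted.

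Gjb6, which encodes Cx30, had its highest levels at the end of the fasting regimens. The 5 AL libraries had 85.8, 81.2, 89.2, 88.5 and 93.6 CPM. IF16 libraries had 95.3, 94.2, 104, 122 and 138 CPM, and EOD libraries had 115, 104, 124, 109 and 127 CPM. All 10 fasted libraries were thus above the highest AL library, by a narrow margin for IF16 replicate 2, which lay just under AL replicate 5 when the 15 libraries of that table were scaled alone.

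The Gjb6 difference did not pass the threshold in edgeR's quasi-likelihood test across all genes. The log2 fold change was 0.34 (SE 0.0961, adjusted p = 0.288) in IF16 against AL and 0.40 (SE 0.0961, adjusted p = 0.188) in EOD against AL. DESeq2 gave an adjusted p of 0.0215 for Gjb6 in EOD against AL and of 0.0945 in IF16 against AL. With the length gradient as a covariate the log2 fold changes were 0.34 and 0.40, and with the choroid plexus level as a covariate 0.32 and 0.42. Groups that did not overlap, with the first group higher, were found for 0.802% of the genes tested in IF16 against AL and for 1.34% in EOD against AL, and Gjb6 was the 1 member so placed in each.

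After refeeding Gjb6 had lower levels in all groups, and they overlapped. Replicates 4 and 5 had the highest values in each refed group, and replicate numbers are taken up with the alternatives below. It had 69, 64.8, 76.3, 82.9 and 85.4 CPM in refed AL, 64.7, 74.6, 76, 95 and 96.8 in refed IF16, and 68.7, 68.8, 75.9, 86.4 and 88 in refed EOD. The change of the EOD difference between the 2 sets, tested as an interaction in the fit of all 30 libraries, was -0.36 on the log2 scale (SE 0.153, unadjusted p = 0.0238, adjusted p = 0.466 by edgeR). The same interaction for IF16 was -0.23 (SE 0.153, adjusted p = 0.772 by edgeR). Neither passed the threshold.

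Gja1, which encodes Cx43, the member connexin of higher level, overlapped between groups at the end of the regimens, while after refeeding refed AL lay apart from the other two groups, which overlapped each other. AL libraries had 256, 248, 253, 189 and 228 CPM, IF16 libraries 209, 261, 263, 262 and 251, and EOD libraries 250, 254, 232, 261 and 235. These 3 groups overlapped, with log2 fold changes of 0.09 (SE 0.0834, adjusted p = 0.706 by edgeR) in IF16 and 0.07 (SE 0.0834, adjusted p = 0.648) in EOD against AL. After refeeding, refed AL libraries had 201, 222, 212, 235 and 215 CPM, refed IF16 libraries 259, 261, 280, 258 and 290, and refed EOD libraries 267, 250, 257, 274 and 260. Every library of refed IF16 and refed EOD was above the highest refed AL library, and the fitted folds against refed AL were 1.24 and 1.21.

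Aqp4, the water channel, had values that overlapped at the end of the regimens. AL libraries had 273, 240, 242, 181 and 196 CPM, IF16 libraries 207, 220, 309, 257 and 259, and EOD libraries 225, 272, 231, 232 and 208. The log2 fold changes against AL were 0.15 (SE 0.119, adjusted p = 0.663 by edgeR) in IF16 and 0.05 (SE 0.119, adjusted p = 0.839) in EOD. After refeeding, refed AL libraries had 255, 262, 242, 247 and 266 CPM, refed IF16 libraries 289, 289, 303, 290 and 325, and refed EOD libraries 290, 296, 273, 315 and 283. As with Gja1, all 10 libraries of refed IF16 and refed EOD were above the highest of refed AL, and the fitted folds against refed AL were 1.17 and 1.15.

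The glutamate transporters overlapped between all groups of a set. Slc1a3 lay between 920 and 1260 CPM in AL, 1060 and 1350 in IF16, and 1190 and 1520 in EOD, and its EOD log2 fold change was 0.19 (SE 0.0927, adjusted p = 0.356 by edgeR). Slc1a2 lay between 485 and 660 CPM in AL, 465 and 588 in IF16, and 511 and 692 in EOD. In the refed set Slc1a3 lay between 1170 and 1300 CPM in refed AL, 1270 and 1390 in refed IF16, and 1260 and 1380 in refed EOD, with log2 fold changes of 0.09 and 0.08. Slc1a2 had log2 fold changes of 0.07 in refed IF16 and 0.02 in refed EOD against refed AL.

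Slc4a4, the bicarbonate cotransporter, had the widest spread of the 9 genes at the end of the regimens. AL libraries had 398, 359, 368, 232 and 275 CPM, IF16 libraries 293, 330, 424, 409 and 402, and EOD libraries 420, 443, 372, 520 and 336. The 3 groups overlapped, and the log2 fold changes were 0.19 (SE 0.149, adjusted p = 0.658 by edgeR) in IF16 and 0.36 (SE 0.149, adjusted p = 0.325) in EOD against AL. The EOD value was 0.09 with the length gradient as a covariate and 0.07 without the 4 libraries of most extreme gradient. In the refed set the values spread less, between 398 and 426 CPM in refed AL, 398 and 464 in refed IF16, and 377 and 453 in refed EOD.

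Of the receptors, Ednrb had refed AL libraries that overlapped with neither refed IF16 nor refed EOD, which overlapped each other, while all refed groups of Gpr37l1 overlapped. Ednrb, which binds endothelins, had 108, 113, 108, 96.2 and 96.1 CPM in AL, 98.6, 103, 103, 106 and 105 in IF16, and 97.3, 108, 95.4, 106 and 97.5 in EOD. Its log2 fold changes against AL were -0.02 (SE 0.0598, adjusted p = 0.931 by edgeR) and -0.05 (SE 0.0598, adjusted p = 0.654). Refed AL libraries had 100, 108, 97.1, 104 and 108 CPM, refed IF16 libraries 127, 120, 135, 118 and 124, and refed EOD libraries 126, 127, 120, 131 and 116. The lowest of the 10 libraries with a fasting history after refeeding, at 116 CPM, was above the highest of the 20 other libraries, at 113 CPM.

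Gpr37l1, a receptor for which prosaposin has been proposed as a ligand, lay between 616 and 871 CPM in AL, 626 and 787 in IF16, and 616 and 777 in EOD. After refeeding it lay between 606 and 684 CPM in refed AL, 617 and 666 in refed IF16, and 614 and 657 in refed EOD, so all groups overlapped within each set. Gfap, the intermediate filament that rises in reactive astrocytes, lay between 178 and 272 CPM in AL, 190 and 252 in IF16, and 185 and 245 in EOD. In the refed set it lay between 166 and 192 CPM in refed AL, 187 and 222 in refed IF16, and 183 and 205 in refed EOD, and these groups overlapped too. The log2 fold changes of Gfap against AL were 0.03 in IF16 and -0.02 in EOD (SE 0.118 for both, adjusted p = 0.934 and 0.926 by edgeR).

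**Figure D2:**
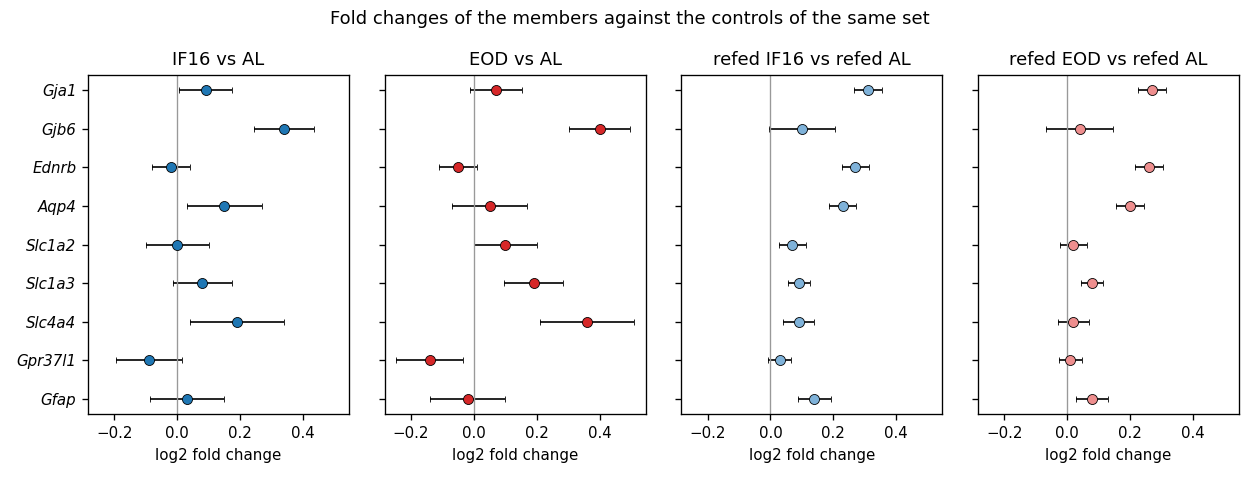
Log2 fold change of each gene (x axis) against the ad libitum group of the same set, for IF16, EOD, refed IF16 and refed EOD. Points are edgeR estimates and bars are 1 SE. Gjb6 lies farthest to the right in EOD against AL at 0.40, and Gja1, Ednrb and Aqp4 in refed IF16 against refed AL at 0.31, 0.27 and 0.23.

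Counted over the 9 genes, no member passed an adjusted p of 0.05 in IF16 against AL, in EOD against AL or in EOD against IF16 by edgeR. Over all genes the shares called were 0.0483%, 0.0664% and 0%. At an unadjusted p under 0.05 the members numbered 1, 2 and 0 (Gjb6 in IF16, Gjb6 and Slc4a4 in EOD), against 9.92%, 14.4% and 3.62% of all genes. DESeq2 called 0, 1 (Gjb6) and 0 members, against 0.577%, 0.828% and 0.004% of the genes it adjusted. The median log2 fold change of the members was 0.08 in IF16 and 0.07 in EOD against AL, beside -0.006 and -0.018 over all genes, and 7 and 6 of the 9 were above 0, beside 48.7% and 46.7% of all genes. With the length gradient as a covariate the medians were 0.03 and -0.02, and 6 and 4 of the 9 were above 0.

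In the refed set, which is described and not tested for support, edgeR called 3 members higher in refed IF16 than in refed AL (Gja1, Ednrb and Aqp4) and 2 higher in refed EOD than in refed AL (Gja1 and Ednrb). Over all genes 0.17% and 0.0426% were called in these comparisons, 0.0669% and 0.0243% as higher. Groups that did not overlap, with the fasted history higher, numbered 3 of 9 members in each comparison, against 1.16% and 0.937% of all genes. All 9 members had a log2 fold change above 0 in both comparisons, with medians of 0.10 and 0.08 beside -0.002 and 0.001 over all genes, of which 48.8% and 50.3% were above 0. With the length gradient as a covariate, Slc1a2 and Slc4a4 were at -0.07 and -0.05 in refed IF16 against refed AL. Both comparisons use the same 5 refed AL libraries.

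The calls in the refed set depended on single libraries. In refed IF16 against refed AL, 1 member was called without refed AL replicate 1, 3 or 4 or without refed IF16 replicate 5, and 0 without refed IF16 replicate 3. Over the 10 fits that each left out 1 library, Gja1 was called in 9, Ednrb in 5 and Aqp4 in 1. In refed EOD against refed AL, 1 member was called without refed AL replicate 4 and 0 without any one of refed AL replicates 1, 2, 3 and 5 or refed EOD replicates 2, 3, 4 and 5. Over the 10 fits of this comparison, Gja1 was called in 2 and Ednrb in 1. Calls over all genes moved as well. They ran from 0 to 65 genes in refed IF16 and from 0 to 16 in refed EOD, beside 28 and 7 in the main fits. The log2 fold changes themselves moved little, from 0.29 to 0.34 for Gja1 and from 0.24 to 0.29 for Ednrb in refed IF16, and 0.25 to 0.31 and 0.24 to 0.28 in refed EOD.

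Some library measures differed in level alongside these comparisons, none at an adjusted p under 0.05. The length gradient was higher in refed IF16 than in refed AL (means 0.0599 and 0.0247, exact permutation p = 0.00794, the smallest that 5 libraries against 5 allow in a test of both directions, and 0.117 adjusted over 147 tests). Between refed EOD and refed AL its means were 0.027 and 0.0247 (exact permutation p = 0.81). The gradients of refed IF16 and refed AL did not overlap, so a fit with the gradient as a covariate cannot fully separate it from the group. In that fit the log2 fold changes in refed IF16 were 0.22 for Gja1, 0.18 for Ednrb and 0.12 for Aqp4, and no member was called. The edgeR adjusted p was 0.999 for each of these genes, and the SE of Gja1 was 0.0609, beside 0.0448 without the covariate. In refed EOD the log2 fold changes were 0.27, 0.25 and 0.19 (edgeR adjusted p = 0.0553, 0.0553 and 0.0789), and no member was called. The mean log2 level of 10 oligodendrocyte genes was also higher in refed IF16 and in refed EOD than in refed AL (7.4 in both against 7.27, exact permutation p = 0.00794, adjusted 0.117, for each), with summed levels of 5280 to 7120, 5650 to 6720 and 5100 to 5620 CPM. All 5 blood genes were below refed AL in both comparisons, with median log2 fold changes of -0.88 and -1.61, none called by edgeR and 2 and 5 at an unadjusted p under 0.05. Their summed levels were 8.7 to 114 CPM in refed AL, 13.9 to 56 in refed IF16 and 14.8 to 25.5 in refed EOD, and their mean log2 level gave exact permutation p of 0.357 and 0.111 (adjusted 0.648 and 0.381). The part of the oligodendrocyte and blood levels in the member differences was not tested.

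EdgeR called 0 members between refed EOD and refed IF16, where it called 0.0182% of all genes, and 0 members had an unadjusted p under 0.05, against 9.75% of all genes. All 9 log2 fold changes of refed EOD against refed IF16 were below 0, between -0.07 and -0.01, beside 47.9% of all genes. The direction turned with the length gradient as a covariate, where 6 of the 9 were above 0 and the median was 0.04. For Gja1 the value was -0.04 (SE 0.0448), for Ednrb -0.01 (SE 0.0436) and for Aqp4 -0.03 (SE 0.0437), with adjusted p of 0.839, 0.977 and 0.867.

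The interaction asked whether a difference from the ad libitum mice was of another size after refeeding than before it. It contains the refed comparison that was known when the genes were chosen, so its values are a description too. Ednrb had the smallest p of the 9, with an interaction of 0.29 (SE 0.0738, adjusted p = 0.246 by edgeR) for IF16 and 0.31 (SE 0.0739, adjusted p = 0.24) for EOD. Gja1 had 0.23 (SE 0.0967, adjusted p = 0.628 by edgeR) and 0.20 (SE 0.0967, adjusted p = 0.481). No member passed the threshold, while 0.0474% and 0.0119% of all genes did. With the length gradient as a covariate, Ednrb was called in both (0.29, adjusted p = 0.0192, and 0.38, adjusted p = 0.00563, by edgeR) and Gja1 in EOD (0.32, adjusted p = 0.0464). The shares of all genes above are from the fit without the covariate. Those with it are not given here, so these calls have no background beside them.

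Refed AL and AL differ in age, at 8 and 6 months, and in the set and table they belong to, and these cannot be told apart. EdgeR called 2 of the 9 members, against 23.9% of all genes. Slc4a4 was higher in refed AL, at 408 ± 11.1 CPM against 326 ± 70 (SD, n = 5 each; log2 fold change 0.32, SE 0.117, edgeR adjusted p = 0.0456). Gpr37l1 was lower, at 632 ± 31.4 CPM against 737 ± 122 (log2 fold change -0.22, SE 0.0787, edgeR adjusted p = 0.0413). Both pairs of groups overlapped. The gradient means were 0.0247 in refed AL and -0.0746 in AL (exact permutation p = 0.0159, adjusted 0.13), and with the gradient as a covariate Slc4a4 was at -0.02 and Gpr37l1 at -0.08, neither called. Gja1 was at -0.12 and not called without the covariate (edgeR adjusted p = 0.208). With the covariate Gja1 was called lower in refed AL (-0.28, edgeR adjusted p = 0.00518). Without the 4 libraries of most extreme gradient it was called lower too (-0.22, edgeR adjusted p = 0.0199). With the covariate all 9 members were below 0, with a median of -0.07. The highest AL gradient, 0.016, barely passed the lowest of refed AL, 0.0133, so that fit cannot fully separate gradient and group. Without AL replicate 1, 5 members were called, without refed AL replicate 4, 1, and without any one of AL replicates 4 and 5 or refed AL replicates 1, 2, 3 and 5, 0. The background moved too: 4030 genes were called in all, 6173 without AL replicate 1, 830 and 1250 without AL replicates 4 and 5, 2111 and 2303 without refed AL replicates 2 and 3, and 223 with the gradient as a covariate. A fit of AL and refed AL alone, without the other groups, called 28 genes in all and 0 members.

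The members differed in how closely they followed the length gradient. In the 15 libraries of the AL, IF16 and EOD groups, Slc4a4 followed it most closely (Pearson r = 0.979, permutation p = 1e-05, the smallest that 100000 permutations can give, adjusted 0.00052 over 52 relations; Spearman rho = 0.929, adjusted permutation p = 0.00026). Leaving out the 2 libraries of most distant gradient gave r = 0.958, and values centred within groups gave 0.981. Slc1a3 had r = 0.886 and rho = 0.654 (adjusted permutation p = 0.00052 and 0.0366), with r = 0.744 without the farthest 2. For Gja1 these were r = 0.859 and rho = 0.725 (adjusted permutation p = 0.000728 and 0.0162), and 0.818 without the farthest 2.

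Slc1a2 and Aqp4 also rose with the gradient, with r = 0.842 and rho = 0.911 (adjusted permutation p = 0.00111 and 0.00026) and r = 0.76 and rho = 0.843 (0.00381 and 0.00247), and r = 0.839 and 0.846 without the farthest 2. Gpr37l1 and Gfap ran the other way, at r = -0.645 and rho = -0.536 (adjusted permutation p = 0.0283 and 0.0986) and r = -0.591 and rho = -0.625 (0.0499 and 0.0456). Without the farthest 2 they had r = -0.892 and -0.865. Ednrb had r = 0.578 and rho = 0.504 (adjusted permutation p = 0.0542 and 0.124, r = 0.514 without the farthest 2). With values centred within groups Ednrb had r = 0.801, beside 0.833 for Aqp4 and 0.842 for Slc1a2. Gjb6, the member with the largest fold change in EOD against AL, had r = 0.339 and rho = 0.218 (adjusted permutation p = 0.318 and 0.552, r = 0.235 without the farthest 2). Centred within groups, Gjb6 had r = 0.047.

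In the refed set the gradient spanned a narrower range. Slc1a2 followed it with r = 0.823 and rho = 0.832 (adjusted permutation p = 0.00117 and 0.0026, r = 0.731 without the farthest 2) and Slc4a4 with r = 0.734 and rho = 0.743 (0.00672 and 0.0151, r = 0.74 without the farthest 2). Gja1 had r = 0.609 and rho = 0.625 (adjusted permutation p = 0.042 and 0.0456). Its r fell to 0.39 without the farthest 2 libraries, so part of the relation rests on them. Centred within groups, the r of Gja1 was 0.533. Aqp4 had r = 0.678 and rho = 0.668 (adjusted permutation p = 0.02 and 0.0308), and r = 0.505 without the farthest 2. Gpr37l1 had r = 0.064 and rho = 0.075 (adjusted permutation p = 0.837 and 0.842, r = -0.154 without the farthest 2). Against the choroid plexus level, none of the 9 members passed an adjusted p of 0.05 by Pearson's r in either set. By Spearman's rho Slc1a3 passed in the refed set (rho = -0.646, adjusted permutation p = 0.0393), with r = -0.491 (adjusted permutation p = 0.125) and r = -0.292 without the farthest 2.

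**Figure D3:**
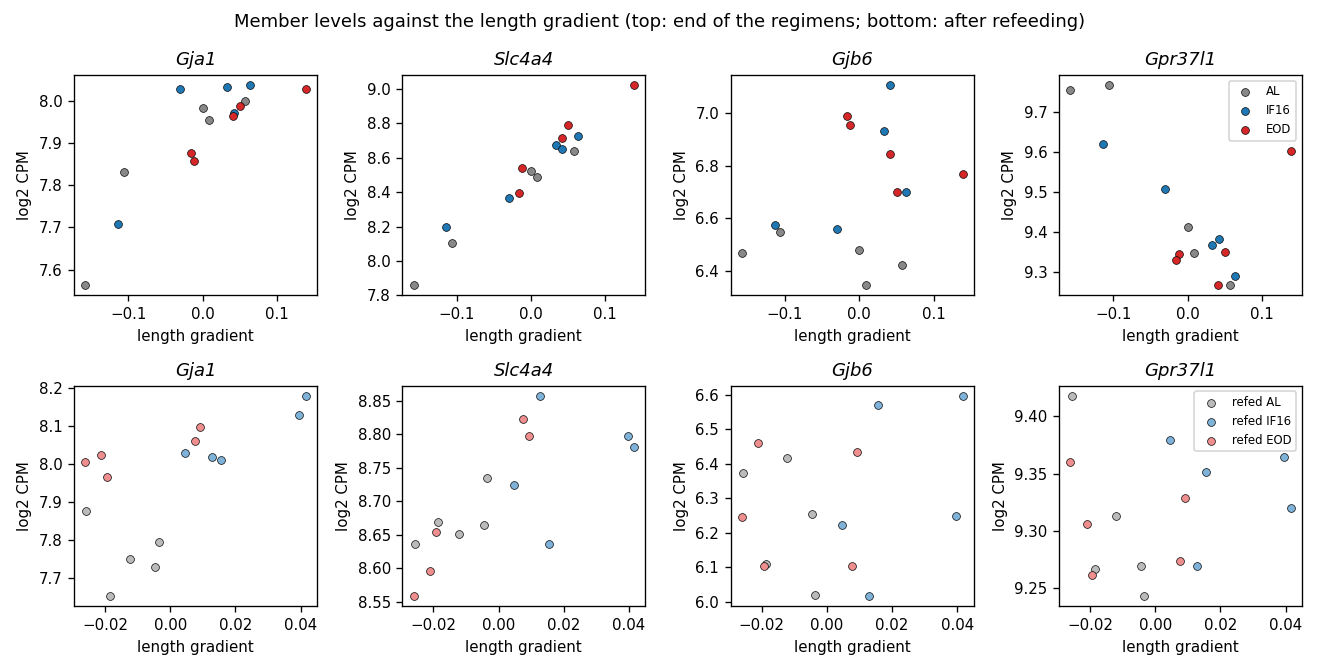
Log2 CPM of Gja1, Slc4a4, Gjb6 and Gpr37l1 (y axis) against the length gradient of the library within its table (x axis), for the regimen set (top) and the refed set (bottom). Each point is 1 library, coloured by group. Slc4a4 lies close to a line in the regimen set (r = 0.979), and Gjb6 does not (r = 0.339).

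Genes that act with the members were read from 9 lists. Some genes were left out of their lists after the values were seen. The counts and medians below therefore describe the genes kept and support nothing. Of 6 gap junction partners (other connexins, Panx1 and the scaffold Tjp1), none was called in IF16 or EOD against AL by edgeR, and 2 of 6 had a log2 fold change above 0 in each. Gjb1, a connexin of oligodendrocytes, was at 23.4 ± 4.38 CPM in IF16, 22.7 ± 1.6 in EOD and 31.2 ± 4.44 in AL (SD, n = 5 each), with edgeR adjusted p of 0.307 and 0.21. Panx1, a pannexin channel, was at 2.65 ± 0.244 CPM in IF16, 3.06 ± 0.277 in EOD and 4.4 ± 1.25 in AL (edgeR adjusted p = 0.164 and 0.263). In refed IF16 and refed EOD against refed AL none of the 6 was called, and their median log2 fold changes were 0.08 and 0.03.

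The ligands and processing enzymes of the endothelin and prosaposin receptors formed a list of 7. None was called in any fasted comparison. Edn3, an endothelin, was at 9.16 ± 1.2 CPM in IF16 and 7.53 ± 0.906 in AL (SD, n = 5 each, edgeR adjusted p = 0.446). Gpr37, the close relative of Gpr37l1, was at 49.6 ± 2.96, 49 ± 3.71 and 56.2 ± 5.12 CPM in IF16, EOD and AL, with edgeR adjusted p of 0.446 and 0.316, and the endothelin-converting enzyme Ece2 was at 78.4 ± 1.68 CPM in EOD and 86.9 ± 5.7 in AL (edgeR adjusted p = 0.329). The median log2 fold change of the list was 0.06 in refed IF16 and 0.07 in refed EOD against refed AL.

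The 8 genes of the endfoot water and potassium complex, among them the channel Kcnj10, held no called gene in the fasted comparisons. Their medians were 0.00, 0.07, 0.07 and 0.01 in IF16, EOD, refed IF16 and refed EOD against their controls. Dtna, a dystrobrevin of the endfoot scaffold, was at 176 ± 17.5 CPM in EOD and 143 ± 20.8 in AL (SD, n = 5 each, edgeR adjusted p = 0.316), and Mlc1, a membrane protein of astroglial endfeet, at 262 ± 14.6 and 287 ± 30.5 (edgeR adjusted p = 0.397). Of 14 other astroglial transporters none was called, with medians of 0.00, 0.08, 0.11 and 0.08. Slc7a10, a D-serine transporter, was at 43.1 ± 6.24 CPM in IF16, 43.7 ± 3.74 in EOD and 54.8 ± 7.72 in AL (edgeR adjusted p = 0.347 and 0.302). Slc13a5, a citrate transporter, was at 12.3 ± 2.72 CPM in EOD and 8.98 ± 0.724 in AL, without overlap (edgeR adjusted p = 0.237).

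Of 14 other astroglial receptors none was called in the fasted comparisons, with medians of 0.03, 0.13, 0.11 and 0.07. Egfr, a growth factor receptor, was at 12.8 ± 1.67 CPM in IF16, 12.9 ± 1.17 in EOD and 10.6 ± 1.32 in AL (SD, n = 5 each, edgeR adjusted p = 0.419 and 0.315). The 7 genes of glutamate and glutamine handling had medians of 0.06, 0.01, 0.03 and 0.00, with none called. Glul, glutamine synthetase, was at 1290 ± 155 CPM in EOD and 1130 ± 69.4 in AL (edgeR adjusted p = 0.337), and Slc38a3, a glutamine transporter, at 83.6 ± 9.39 CPM in IF16 and 100 ± 10.8 in AL (edgeR adjusted p = 0.363).

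In IF16 against AL edgeR called 0.0483% of all genes. Of the genes kept in these lists, 1 was called in a fasted comparison. This was Fabp7, the brain fatty acid binding protein of radial glia and Bergmann glia. It was lower in IF16, at 21.3 ± 3.83 CPM against 50.7 ± 9.82 in AL (SD, n = 5 each), and these groups did not overlap. Its log2 fold change was -1.25, with an SE of 0.2 and an adjusted p of 0.033 by edgeR. EOD libraries averaged 30.5 ± 10.1 CPM, a log2 fold change of -0.73 (SE 0.197), with an edgeR adjusted p of 0.217. The other Bergmann glia genes gave no call in the fasted comparisons, and the list had medians of -0.05, -0.12, 0.06 and 0.05 in IF16, EOD, refed IF16 and refed EOD. The 16 other astrocyte genes had medians of -0.11, -0.08, 0.01 and 0.05, and the 14 genes of reactive astrocytes 0.02, 0.00, 0.04 and 0.02, with none called. Osmr, the oncostatin M receptor, was at 3.75 ± 0.594 CPM in EOD and 2.38 ± 0.248 in AL, without overlap (edgeR adjusted p = 0.158).

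**Figure D4:**
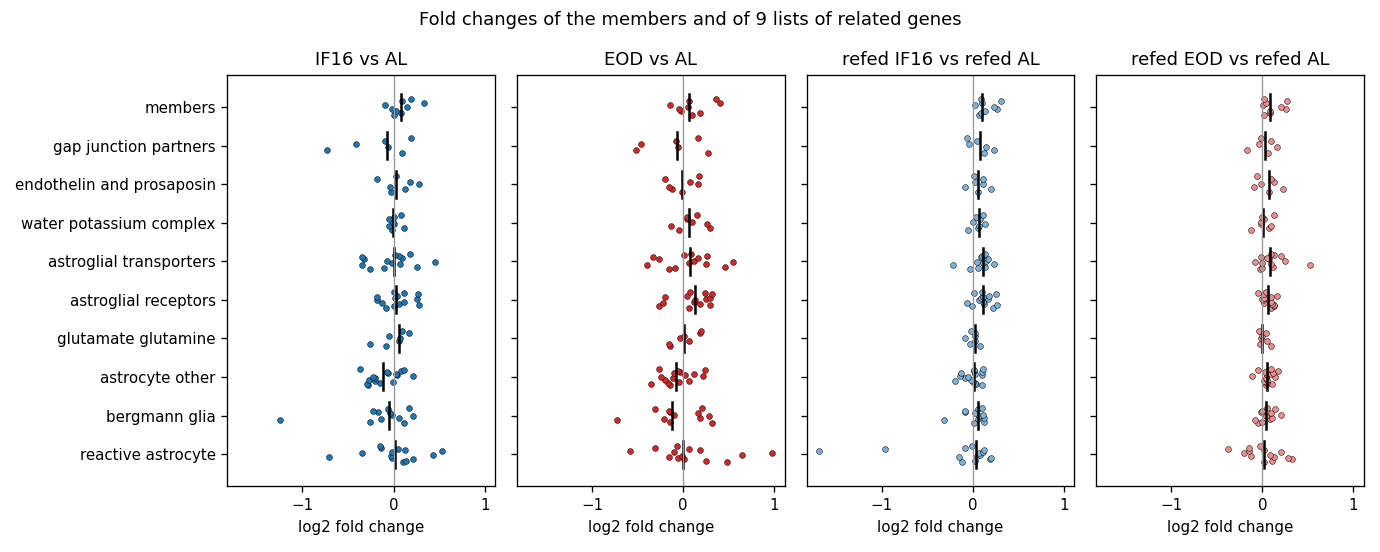
Log2 fold change (x axis) of the 9 members and of the genes of 9 related lists (rows) against the ad libitum group of the same set. Points are genes, and the vertical bar is the list's median. The members' medians are 0.08, 0.07, 0.10 and 0.08, and Fabp7 is the Bergmann glia gene at -1.25 in IF16.

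In refed AL against AL, where 23.9% of all genes were called, several of the listed genes fell. Of the gap junction partners 3 of 6 were called lower: Panx1, Gjb1 and Gjb2, with log2 fold changes between -0.66 and -0.33. Among the astrocyte genes 5 of 16 were called lower, including Cst3 (-0.47), Clu (-0.43), Apoe (-0.45) and Ndrg2 (-0.33), and among the Bergmann glia genes 5 of 12 were lower, including Hopx (-0.30) and Vim (-0.24), and 1 was higher. Mlc1 fell by 0.23 on the log2 scale, and Dag1, the dystroglycan of the endfoot, rose by 0.35. The receptors Notch1 and Notch2 rose by 0.47 and 0.33, and Ntsr2 fell by 0.28. Markers of other cell types moved in the same comparison: 4 of 10 oligodendrocyte, 5 of 7 oligodendrocyte precursor and 5 of 10 microglia genes were called lower, and 4 of 10 granule cell, 4 of 10 Purkinje cell and 5 of 8 interneuron genes higher. Their part in the astroglial values was not tested. The counts of genes called in all without single libraries, with the length gradient or in the fit of AL and refed AL alone are given above.

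Likeness to the members was measured by Pearson's r of log2 CPM over the 30 libraries, centred within each of the 2 sets, among 11584 genes with a mean of at least 5 CPM. The genes most like the mean of the 9 members were Acly (ATP citrate lyase, r = 0.866), Map4 (a microtubule-associated protein, 0.862), Gucy1a3 (a guanylate cyclase subunit, 0.861), S1pr1 (a sphingosine 1-phosphate receptor, 0.851) and Sparcl1 (a secreted matrix protein, 0.849). Those most like Gja1 were S1pr1 (0.885), Eps15 (an endocytic adaptor, 0.853), Dnah11 (an axonemal dynein, 0.828), Gucy1a3 (0.818) and Rassf2 (0.786). The points share libraries, depth and the length gradient. Centring within the 2 sets keeps the differences between groups, including the refed ones known when the genes were chosen. Centred within the 6 groups, the places for the mean were 15 (Acly), 243 (Map4), 14 (Gucy1a3), 185 (S1pr1) and 2 (Sparcl1). For Gja1 they were 129 (S1pr1), 183 (Eps15), 467 (Dnah11), 18 (Gucy1a3) and 269 (Rassf2).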

How the data were processed

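Read counts per gene came as the authors deposited them, as whole numbers in 2 tables of 15 libraries (end of the regimens and after refeeding). The authors also deposited FPKM values, which are the counts over gene length and total count (largest relative difference 4.97e-12). Per the submitters' processing notes, STAR 2.5, HTSeq 0.6.1, DESeq2 and the build mm10 were used. Strand handling and annotation release are not given in the sources used here, so reads shared with overlapping genes cannot be separated. The deposited counts of the genes overlapping members, Gm13872 (Slc1a2) and Gm26668 (Gfap), were at most 2 and 23.

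Groups were taken from the labels, and 12 chromatin samples were not analysed here. Members and lists were chosen with earlier results of these data known. Counts were tested with edgeR 4.0.16 (R 4.3.3; quasi-likelihood, TMM, filterByExpr by group) in 1 fit per table (16577 and 16444 genes) and 1 fit of 30 libraries (16877 genes) for interactions and refed AL against AL. A gene was called at a Benjamini-Hochberg adjusted p under 0.05 over all genes. SEs come from the F statistic. Single values per library were compared with an exact permutation test, and relations with 100000 permutations. The fits were tested on simulated counts. Alternatives were DESeq2 1.42.0, its size factors, no filter, covariates (length gradient, choroid plexus level), a replicate block, fits of fewer groups or of all libraries, and each replicate left out. Sets of libraries left out were chosen after seeing the data.

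Named genes are the 9 members, up to 4 called genes per list and comparison by smallest p, the 2 smallest unadjusted p per astroglial list in IF16 and EOD against AL, and the 5 most alike genes. Not all genes the rule points to are printed, and some genes of these lists are not reported here and were left out of their lists after the values were seen. Library pairs within groups differed beyond sampling noise (chi-square per degree of freedom 4.25 to 135 over 60 pairs), so all 30 counted as separate. Precision is set by the spread between libraries, not by depth.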

Additional observations from a re-analysis of the deposited data

Results flagged for a closer look

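Of 54 group values (9 genes in 6 groups), 3 held a library that stood apart from the other 4 by a gap large against the group's whole range. Chance flags about 1 in 20 such groups. Gja1 in IF16 replicate 1 was at 209 CPM, with the next library at 251 and the highest at 263 (gap over range 0.775). Slc1a2 in AL replicate 1 was at 660 CPM, with the next at 531 and the lowest at 485 (0.738). Gpr37l1 in EOD replicate 4 was at 777 CPM, with the next at 653 and the lowest at 616 (0.769).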

How the results depend on the processing

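Of 1926 member log2 fold changes under alternatives, 121 changed sign, 2 of them among called values: Slc4a4 in refed AL against AL was -0.02 with the length gradient covariate, with and without the replicate block. Members called were 0 in EOD against IF16 and refed EOD against refed IF16 under every alternative run. With the length gradient covariate, 0 were called in refed IF16 and in refed EOD against refed AL, 1 in the interaction for IF16, 2 in that for EOD and 1 in refed AL against AL. With gradient and replicate block together, 1 was called in IF16 against AL (Gjb6, 0.31, SE 0.0617, edgeR adjusted p = 0.0303, with 0.37 and 0.054 in EOD), 0 in refed IF16 against refed AL, 3 in refed EOD against refed AL, and 1 and 2 in the interactions. The joint fit of 30 libraries called 0 in both refed comparisons with refed AL. DESeq2 called 1 in EOD against AL (Gjb6). It called Gja1, Ednrb and Aqp4 in both refed IF16 and refed EOD against refed AL, with Aqp4 in refed EOD at a DESeq2 adjusted p of 0.00724. The share of all genes DESeq2 called in the refed comparisons is not given here. Without the 4 libraries of extreme gradient (AL replicates 4 and 5, IF16 replicate 1, EOD replicate 4), 1 was called in each interaction and 1 in refed AL against AL. Without the 4 refed libraries of high choroid plexus level (refed AL and refed IF16 replicate 1, refed EOD replicates 2 and 3), 1 was called in refed IF16 and 0 in refed EOD against refed AL, and 0 in refed AL against AL. In refed AL against AL, 0 were also called without the low-count filter, with the choroid plexus covariate and in the fit of those groups alone. Leaving out 1 replicate gave 0 to 3 calls in refed IF16, 0 to 2 in refed EOD and 0 to 5 in refed AL against AL. The causes were not tested. In the replicate block, same-numbered libraries of refed IF16 and refed AL correlated between 0.0926 and 0.427, 3 of 5 over 0.1, and no comparison had every correlation over 0.1, so the numbers were not taken to pair libraries. A shared source of same-numbered libraries was not tested otherwise. With gradient and replicate block together, the SE of Gjb6 was 0.0605 in refed IF16 and 0.04 in refed EOD against refed AL. The main fit gave 0.105 and 0.106, and Gjb6 was called in neither fit. The block alone left the counts at 3 in refed IF16, 2 in refed EOD and 2 in refed AL against AL. The spread between libraries limits small differences more than depth does.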

Other observations

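Marker lists of other cell types, read as the mean log2 CPM of their genes, had group levels that lay apart in some comparisons, though none passed an adjusted p of 0.05. The 10 Purkinje cell genes were at 8.12 ± 0.088 in IF16, 8.16 ± 0.0303 in EOD and 8.03 ± 0.0171 in AL (SD, n = 5 each). The exact permutation p against AL was 0.00794 for each, and 0.117 adjusted over 147 tests. By gene, 7 of the 10 had a log2 fold change above 0 in IF16 and in EOD against AL. None was called by edgeR, and 0 and 2 had an unadjusted p under 0.05, against 9.92% and 14.4% of all genes. The 7 genes of oligodendrocyte precursors were at 4.41 ± 0.0838 in IF16 and 4.71 ± 0.0675 in AL (exact permutation p = 0.00794, adjusted 0.117). In that comparison all 7 had a log2 fold change below 0, with none called by edgeR. Of the 7, 4 had an unadjusted p under 0.05, against 9.92% of all genes. In refed AL against AL, edgeR called 5 of these 7 precursor genes lower, against 23.9% of all genes called in either direction. Among the 5 were Olig2, Gpr17, Sox10 and C1ql1, with log2 fold changes of -0.54, -0.36, -0.41 and -0.34.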
